A study of Mus musculus with 8 samples.

Results

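The D cyclins and the G1 checkpoint genes were followed in mouse kidney tubuloids, which are tubule-like structures grown in Matrigel from fragments of primary kidney tissue. The group held 10 genes chosen by name, namely Ccnd1, Ccnd2, Ccnd3, Cdk4, Cdk6, Cdkn1a, Cdkn1b, Cdkn1c, Cdkn2a and Rb1, and all 10 were found among the 24063 gene symbols of the deposited files. The choice was prompted by the difference of Ccnd2 between the treatment groups, so the values of Ccnd2 in that comparison are a description and carry no test.

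Both treatment groups carried the same genotype, Pkd2fl/fl Pax8rtTA TetOCre mTmG, and are labelled as kidney of postnatal day 7 to 10, while the methods of the study give a younger range. In this system doxycycline (DOX) switches on Cre wherever the Pax8 promoter drives the rtTA activator, which is mainly renal tubular epithelium, and Cre then deletes the floxed part of Pkd2, a gene mutated in autosomal dominant polycystic kidney disease. Cells that do not use the Pax8 promoter keep the gene. Treatment with DOX or with DMSO alone as the control began on day 3 of culture and lasted 3 days, and RNA was taken on day 7, with 4 libraries in each group. The study describes the libraries as cultures and does not say that they came from separate animals, so p-values measure the spread between these cultures.

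Cells pass from G1 into S phase when D-type cyclins activate the kinases CDK4 and CDK6, which phosphorylate the retinoblastoma protein (Rb1) and release the E2F transcription factors that it holds. The INK4 proteins block CDK4 and CDK6, while the CIP/KIP proteins p21 (Cdkn1a), p27 (Cdkn1b) and p57 (Cdkn1c) bind cyclin-CDK complexes more widely and restrain CDK2 in particular. Quiescence, differentiation and cyst growth in renal epithelium have all been studied through these genes.

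The short coding stretches through which the D cyclins and the CIP/KIP inhibitors make their contacts show how closely the members are related, and they are given first for that reason. All are reference sequence from GENCODE vM21 on GRCm38. In the D cyclins the capitals mark the 5 codons of the motif that binds Rb1 and its relatives, within codons 1 to 20 of each coding sequence (Ccnd1, minus strand, chr7:144939634-144939693; Ccnd2, minus strand, chr6:127150714-127150773; Ccnd3, plus strand, chr17:47593655-47593714).
Ccnd1: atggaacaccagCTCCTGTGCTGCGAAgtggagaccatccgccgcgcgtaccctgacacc
Ccnd2: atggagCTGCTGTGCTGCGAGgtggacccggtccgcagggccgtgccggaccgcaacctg
Ccnd3: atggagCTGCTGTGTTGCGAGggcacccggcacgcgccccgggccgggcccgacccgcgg
The motif of Ccnd2 matched that of Ccnd3 at 14 of 15 bases and that of Ccnd1 at 13, and the motifs of Ccnd1 and Ccnd3 matched at 12. In the CIP/KIP genes the capitals mark the 6 codons of the motif that docks onto cyclins (Cdkn1a codons 12 to 31, plus strand, chr17:29098441-29098500; Cdkn1b codons 24 to 43, plus strand, chr6:134920989-134921048; Cdkn1c codons 14 to 33, minus strand, chr7:143460570-143460629).
Cdkn1a: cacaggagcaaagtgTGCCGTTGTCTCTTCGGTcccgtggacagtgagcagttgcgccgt
Cdkn1b: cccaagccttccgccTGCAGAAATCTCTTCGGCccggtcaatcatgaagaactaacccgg
Cdkn1c: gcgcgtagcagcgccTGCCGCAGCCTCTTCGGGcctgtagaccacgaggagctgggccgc
These motifs matched at 13 or 14 of 18 bases in each pair, 14 being the match of Cdkn1a with Cdkn1c. All 6 stretches lie within a single coding exon.

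Depth and cell content set the limits of what follows. Counts summed over transcripts came to between 63922677 and 102716313 per library, and 13243 and 13599 genes were detected in libraries DMSO 20 and DOX 19 against 17054 to 17903 in the other 6. Libraries DMSO 15 and DOX 21 carried counts of Y-linked genes and were taken as male, the other 6 as female. All 6 tubule epithelium markers (Pax8, Cdh1, Epcam, Krt8, Krt18 and Cdh16) were counted in every library, with summed levels of 453 to 2041 TPM (the deposited measure of level per transcript length) in DMSO and 586 to 1356 TPM in DOX. Stromal markers were present too, at 239 to 2603 TPM in DMSO and 490 to 799 TPM in DOX, with Dcn at 0 in DMSO 20 and Lum at 0 in DOX 19. Endothelial markers summed to at most 1.15 TPM in any library. Macrophage markers summed to 3.98 to 28.7 TPM in DMSO and 0.0068 to 10.9 TPM in DOX. None of the 4 endothelial, 4 macrophage and 5 urothelial markers was counted in every library. The targeted gene, Pkd2, gave 6130 ± 1114 normalised counts in DMSO and 4946 ± 772 in DOX (SD, n = 4), ranges that overlapped (DESeq2 adjusted p = 0.9993). Its counts cover the whole transcript, the exons outside the floxed part included, and so check the deletion only weakly.

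Cyclin D2 (Ccnd2) was the member with separate groups. Normalised counts, which are summed counts divided by the size factor of the library, were 17184, 20087, 24429 and 24021 in DMSO libraries 3, 5, 15 and 20. They were 32526, 32179, 35583 and 32773 in DOX libraries 9, 12, 19 and 21. Every DOX library lay above every DMSO library, the lowest DOX value being 1.32 times the highest DMSO value. The means were 21430 ± 3442 and 33265 ± 1565 (SD, n = 4), a fold of 1.55 and a fitted log2 difference of 0.63 (SE 0.17). Per transcript length the level was 88.3 ± 18.2 TPM in DMSO and 144 ± 12.1 TPM in DOX.

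A gene was called where its change reached 1.5-fold and its adjusted p was 0.05 or lower. DESeq2 called 0.147% of the genes it tested (0.0823% higher and 0.0647% lower in DOX), and 2.71% of genes had groups that did not overlap, 1.63% with DOX higher. Of the 9 members other than Ccnd2, 0 were called by DESeq2. edgeR and limma-voom called 0 (0%) of the 15562 genes they tested, so their 0 among the members says nothing of the members themselves. At an unadjusted p under 0.05 the count was 1 by DESeq2 (Cdkn1c), where the share over all genes was 4.67%, 0 by edgeR, where it was 3.06%, and 0 by limma-voom, where it was 3.07%. The groups of all 9 overlapped. Of these, 6 were fitted higher in DOX and 3 lower, with a median log2 difference of 0.064 beside -0.076 over all genes.

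**Figure D1:**
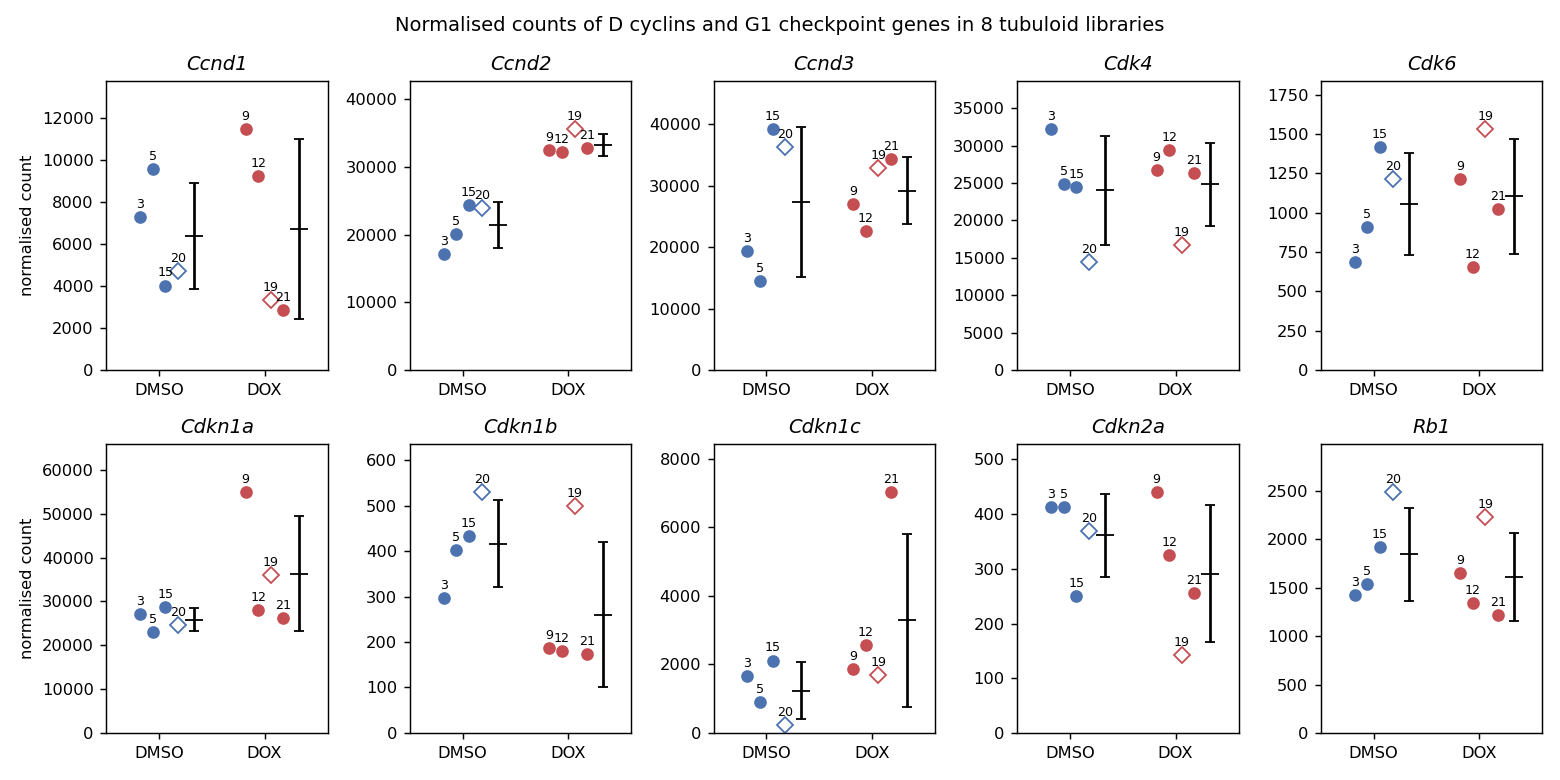
Normalised counts (vertical axes from 0) of the 10 genes in 4 DMSO libraries (blue) and 4 DOX libraries (red), each point labelled with its library number. Open diamonds are the libraries with the fewest detected genes (DMSO 20 and DOX 19), and the black bar is the mean with its SD. The groups are separate for Ccnd2 and overlap for the other 9 genes.

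Cyclin D1 (Ccnd1), the D cyclin most tied to mitogen signals, varied more between libraries than between treatments. Its normalised counts were 7285, 9583, 4037 and 4738 in DMSO 3, 5, 15 and 20, and 11486, 9268, 3325 and 2863 in DOX 9, 12, 19 and 21. Each group held a high pair and a low pair of libraries, and the highest value was 4.01 times the lowest. The fitted log2 difference was 0.07 (SE 0.54, 95% interval -0.99 to 1.13, DESeq2 adjusted p = 0.9993), and the interval includes sizeable changes in either direction.

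Cyclin D3 (Ccnd3), which is abundant in many differentiated tissues, ran the opposite way across libraries. Its normalised counts were 19421, 14544, 39206 and 36314 in DMSO 3, 5, 15 and 20, and 27015, 22587, 32944 and 34289 in DOX 9, 12, 19 and 21. The 4 libraries highest in Ccnd1 (DMSO 3, DMSO 5, DOX 9 and DOX 12) were the 4 lowest in Ccnd3. Between treatments the log2 difference was 0.09 (SE 0.38, 95% interval -0.65 to 0.84, DESeq2 adjusted p = 0.9993).

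The same 4 libraries had the highest summed tubule epithelium markers, at 2041, 1938, 1356 and 1092 TPM in DMSO 3, DMSO 5, DOX 9 and DOX 12. The other 4 gave 453 TPM in DMSO 15, 926 in DMSO 20, 951 in DOX 19 and 586 in DOX 21. The lower 4 are the male and the low-detection libraries, and DMSO 15 was also the library with the highest stromal sum, 2603 TPM. The part of cell content, of sex and of detection in the split of Ccnd1 and Ccnd3 was not tested, and in bulk RNA fewer cells of a type and less RNA per cell cannot be told apart. Without DMSO 20 and DOX 19 the means of Ccnd2 were 20567 ± 3646 and 32492 ± 298 (SD, n = 3).

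The make-up of the D cyclin pool was taken from TPM with 1 transcript per gene. Ccnd2 made up 37.4%, 41.9%, 36.9% and 37.4% of D cyclin TPM in DMSO 3, 5, 15 and 20, and 43.6%, 48.1%, 50.3% and 47.9% in DOX 9, 12, 19 and 21. Its mean share was 38.4% ± 2.35 in DMSO and 47.5% ± 2.80 in DOX (SD, n = 4), and these shares did not overlap either. Ccnd1 held between 6.36% (DOX 21) and 30.4% (DMSO 5), and Ccnd3 between 27.8% (DMSO 5) and 53.9% (DMSO 15). The shares follow in part from the counts of Ccnd2 already given and are no separate evidence. With summed transcripts the shares of Ccnd2 overlapped, at 17.4% to 26.6% in DMSO and 24.6% to 29.3% in DOX.

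**Figure D2:**
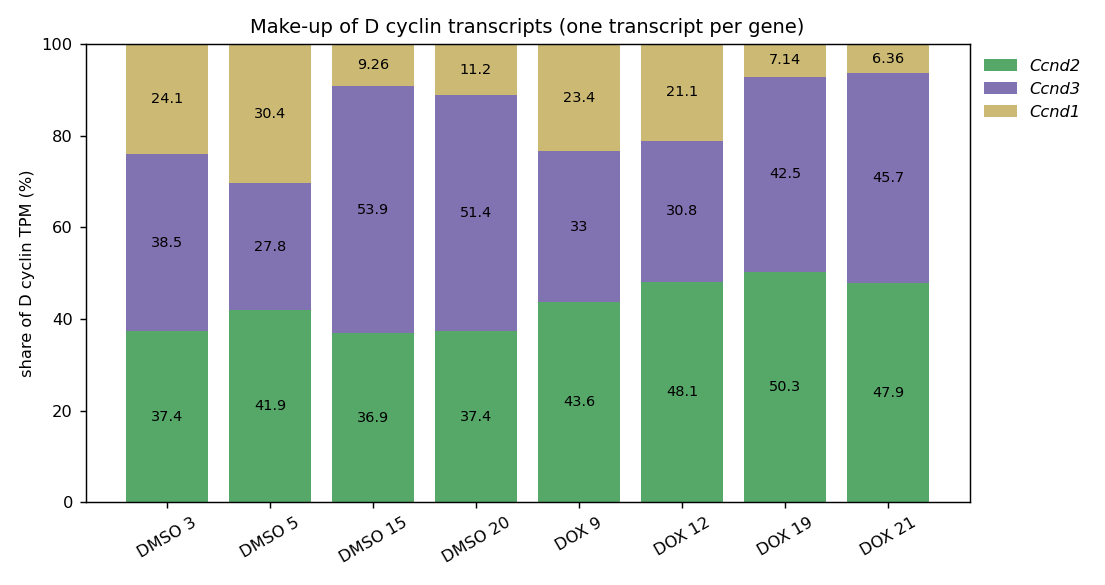
Share of D cyclin TPM (%) held by Ccnd2 (green), Ccnd3 (purple) and Ccnd1 (yellow) in each library, with 1 transcript per gene. Ccnd2 holds 36.9% to 41.9% in the DMSO libraries and 43.6% to 50.3% in the DOX libraries, while the boundary between Ccnd3 and Ccnd1 moves within both groups.

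CDK4 (Cdk4), the main partner kinase of the D cyclins here by transcript level, gave 32174, 24878, 24510 and 14433 normalised counts in DMSO 3, 5, 15 and 20. It gave 26735, 29380, 16731 and 26369 in DOX 9, 12, 19 and 21. The low-detection library was the lowest in each group, at 0.531 times the mean of the other DMSO libraries and 0.609 times that of the other DOX libraries. The log2 difference was 0.05 (SE 0.32, 95% interval -0.58 to 0.67, DESeq2 adjusted p = 0.9993).

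CDK6 (Cdk6), the second D cyclin kinase, was much lower, with 687, 910, 1418 and 1214 normalised counts in the DMSO libraries in the same order and 1212, 656, 1530 and 1022 in the DOX libraries. Its groups covered nearly the same range, and the log2 difference was 0.06 (SE 0.37, 95% interval -0.66 to 0.79, DESeq2 adjusted p = 0.9993). Cdk4 held 95.2% to 98.8% of the TPM of the pair in all 8 libraries.

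The CIP/KIP inhibitors were dominated by p21 (Cdkn1a), a target of p53, which held 78.5% to 96.3% of their TPM with 1 transcript per gene. Its normalised counts were 27148, 22947, 28752 and 24532 in DMSO 3, 5, 15 and 20, and 55007, 28140, 35975 and 26158 in DOX 9, 12, 19 and 21. The DMSO libraries lay close together, and DOX 9 stood well above the other DOX libraries. The log2 difference was 0.49 (SE 0.29, 95% interval -0.08 to 1.06, DESeq2 adjusted p = 0.9993), and without DOX 9 it was 0.22.

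p27 (Cdkn1b), which is controlled largely through protein breakdown, had the lowest mean TPM of the group over the 8 libraries. Its normalised counts were 298, 402, 432 and 530 in DMSO 3, 5, 15 and 20, and 188, 180, 499 and 173 in DOX 9, 12, 19 and 21. DOX 9, 12 and 21 lay below every DMSO library, and DOX 19 lay above all but DMSO 20. The log2 difference was -0.68 (SE 0.47, 95% interval -1.59 to 0.23, DESeq2 adjusted p = 0.9993). Without DOX 19 it was -1.20 (DESeq2 adjusted p = 0.0489), past the threshold, with 17 genes called over all genes. DOX 19 held the value far from the rest of its group, so this call rests on leaving that value out. Without both low-detection libraries it was -1.05, with means of 377 ± 70.6 and 180 ± 7.19 (SD, n = 3, DESeq2 adjusted p = 0.0878). Cdkn1b was highest in the low-detection library of each group, by 1.41 times the mean of the others in DMSO and 2.77 times in DOX. The part of low detection in the value of DOX 19 was not tested.

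p57 (Cdkn1c), an imprinted inhibitor linked to differentiation, ranged over 32.0-fold between libraries. Its normalised counts were 1668, 913, 2115 and 220 in DMSO 3, 5, 15 and 20, and 1870, 2566, 1678 and 7039 in DOX 9, 12, 19 and 21. The lowest value was that of the low-detection DMSO library and the highest that of the male DOX library, and DMSO 15, the male DMSO library, was the highest of its group. The log2 difference was 1.42 (SE 0.72, 95% interval 0.01 to 2.83, DESeq2 adjusted p = 0.9425). Leaving out DOX 21 brought it to 0.73, and leaving out DMSO 20 to 1.07. The part of sex and of detection in this spread was not tested.

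Cdkn2a encodes p16-INK4a and p19-ARF, which inhibit CDK4/6 and MDM2, from separate first exons joined to shared later exons. Summed over both transcripts its normalised counts were 413, 412, 251 and 369 in DMSO 3, 5, 15 and 20, and 441, 326, 143 and 256 in DOX 9, 12, 19 and 21. The lowest value was that of DOX 19 and the highest that of DOX 9, so the DOX libraries spanned the DMSO range. The log2 difference was -0.31 (SE 0.42, 95% interval -1.13 to 0.51, DESeq2 adjusted p = 0.9993). It was -0.074 without DOX 19 and -0.048 without both low-detection libraries.

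The deposited files list the Arf and Ink4a transcripts separately. Reads under the Arf transcript numbered 257, 298, 152 and 213 in DMSO 3, 5, 15 and 20, and 292, 286, 127 and 166 in DOX 9, 12, 19 and 21. Reads under the Ink4a transcript numbered 187, 111, 98 and 75 in the DMSO libraries and 227, 172, 0 and 78 in the DOX libraries. Arf was above Ink4a in all 8 libraries, and the 0 of DOX 19 allows up to 3 counts, for counting error only. How reads in the shared exons were divided is not given in the sources used here, so the ratio of the transcripts is uncertain.

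Because these transcripts start apart, the 250 bases before each start are shown from the RefSeq promoter table on GRCm38.p6, both on the minus strand. Capitals mark GGGCGG, the GC box, on either strand. The Arf window, chr4:89294620-89294869, holds 40 CpG dinucleotides and 2 GC boxes, and the Ink4a window, chr4:89282193-89282442, holds 7 CpG and no match.
Cdkn2a Arf: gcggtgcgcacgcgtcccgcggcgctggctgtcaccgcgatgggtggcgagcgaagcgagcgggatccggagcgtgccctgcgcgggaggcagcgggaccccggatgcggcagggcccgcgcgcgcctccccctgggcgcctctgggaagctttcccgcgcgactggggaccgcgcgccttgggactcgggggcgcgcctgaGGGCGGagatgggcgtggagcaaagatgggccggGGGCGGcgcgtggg
Cdkn2a Ink4a: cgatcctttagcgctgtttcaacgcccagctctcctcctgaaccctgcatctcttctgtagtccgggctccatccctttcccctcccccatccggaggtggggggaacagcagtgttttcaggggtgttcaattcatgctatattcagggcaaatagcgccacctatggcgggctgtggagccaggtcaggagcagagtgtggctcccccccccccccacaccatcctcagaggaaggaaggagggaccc
GGGCGG was found in 32.7% of the 32851 promoter windows of the table.

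The window of Cdk4, the member with the highest mean TPM over the 8 libraries, is shown for comparison on the plus strand at chr10:127063285-127063534. Capitals mark CACGTG, the E box, which occurs 4 times, and CCGCCC, the GC box on the other strand, which occurs once. CACGTG was found in 6.02% of all windows.
Cdk4: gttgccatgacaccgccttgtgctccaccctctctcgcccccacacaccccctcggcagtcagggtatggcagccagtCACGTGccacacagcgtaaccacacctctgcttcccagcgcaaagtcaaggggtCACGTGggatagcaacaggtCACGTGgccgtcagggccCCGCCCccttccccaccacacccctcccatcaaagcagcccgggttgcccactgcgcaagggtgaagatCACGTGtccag
The table held windows for 6 of the 10 members. The E2F letters TTTCGCG and TTTGGCG, which occur in 0.703% and 1.26% of all windows on either strand, were in none of the 9 windows of these members. A match or its lack describes these letters in these windows only.

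**Figure D3:**
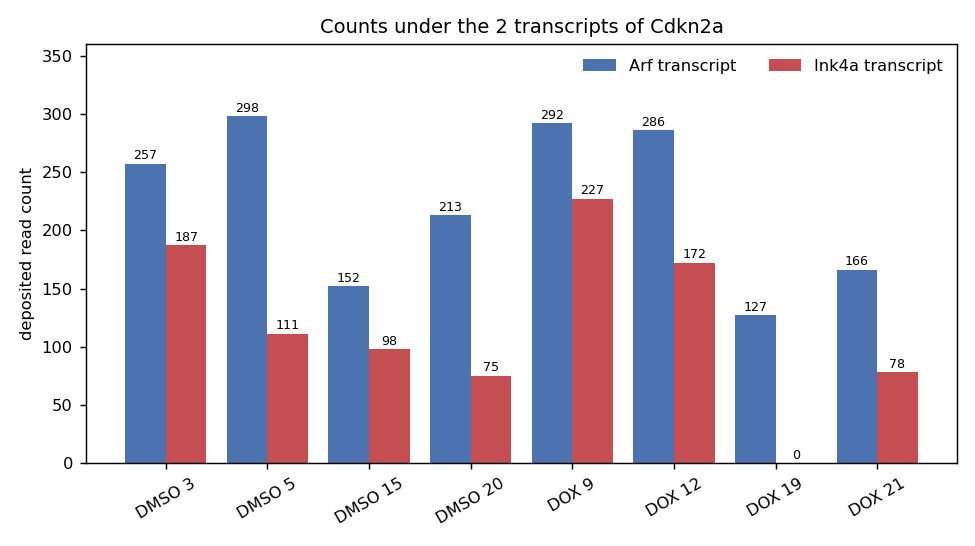
Deposited read counts under the Arf transcript (blue bars) and the Ink4a transcript (red bars) of Cdkn2a in each library, from 0. Arf is above Ink4a in all 8 libraries, and DOX 19 has 127 reads under Arf and 0 under Ink4a.

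The retinoblastoma gene itself (Rb1) gave 1428, 1536, 1925 and 2490 normalised counts in DMSO 3, 5, 15 and 20, and 1656, 1341, 2231 and 1222 in DOX 9, 12, 19 and 21. Like Cdkn1b it was highest in the low-detection library of each group, at 1.53 times the mean of the other DMSO libraries and 1.59 times that of the other DOX libraries. The log2 difference was -0.19 (SE 0.30, 95% interval -0.79 to 0.40, DESeq2 adjusted p = 0.9993). It was -0.02 without DMSO 20 and -0.38 without DOX 19.

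Some of these counts may include reads from a neighbour, because the library kit does not mark strand. How the counting treated reads in overlapping exons is not given in the sources used here. By GENCODE vM21, exons of other genes overlap 30.6% of the exonic bases of Cdkn1c (the antisense Gm44732), 23.4% of those of Ccnd1 (LTO1), 19.7% of those of Cdk4 (Tspan31) and 14.9% of those of Rb1 (Lpar6 and Rcbtb2). The overlap was 7.86% for Ccnd2, from a pair of antisense genes, 7.68% for Cdkn1a, 4.11% for Ccnd3 and 2.63% for Cdk6. Cdkn1b and Cdkn2a had none. These shares are of the exons of all GENCODE transcripts of a gene, not of the RefSeq transcripts that were counted. Cdk4 had 3249 such bases and Cdk6 13989, against counted transcript lengths of 1346 and 2470.

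The order of the members was compared in TPM, a level per transcript length, within each library and without regard to treatment. With transcripts summed, mean levels over 8 libraries were 442 TPM for Cdk4, 392 for Cdkn1a, 332 for Ccnd3, 116 for Ccnd2, 43.1 for Ccnd1, 28.4 for Cdkn1c, 10.6 for Cdk6, 9.09 for Rb1, 8.89 for Cdkn2a and 3.40 for Cdkn1b. Within groups the order of the means differed from this in 1 place each, with Cdkn1a (468 TPM) above Cdk4 (467 TPM) in DOX and Cdkn2a (9.61 TPM) above Rb1 (9.52 TPM) in DMSO. Of the 9 pairs next to each other in this order, 3 differed by an exact two-sided sign-flip permutation test of log2(TPM + 0.1) with Benjamini-Hochberg adjustment over the 9. Ccnd3 was above Ccnd2 by 1.51 on the log2 scale and Ccnd2 above Ccnd1 by 1.58, each in 8 of 8 libraries (exact permutation adjusted p = 0.0352). Cdkn2a was above Cdkn1b by 1.39, in 7 of 8 libraries (exact permutation adjusted p = 0.0469). The other 6 neighbouring pairs did not differ beyond their spread.

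The counting of transcripts changes part of this order. The files list 3 transcripts of Ccnd3 whose counts were nearly the same in each library, the highest being at most 1.02 times the lowest, and the same held for the pairs of Cdkn1a and Cdkn1c. If a read in shared exons was counted under each transcript, the sums hold it more than once, and if it was divided among them they do not. The sources used here do not say which. The transcripts of Cdkn2a, which share later exons, were unlike these, with 127 reads under Arf and 0 under Ink4a in DOX 19. With 1 transcript per gene, Ccnd3 fell from 332 to 108 TPM and stood beside Ccnd2 at 116 TPM, Ccnd2 being higher in 5 of 8 libraries by a mean log2 difference of 0.11 (exact permutation adjusted p = 0.527). By group the order of the means turned, with Ccnd3 at 101 TPM and Ccnd2 at 88.3 TPM in DMSO. In DOX Ccnd3 was at 114 TPM and Ccnd2 at 144 TPM, a description only, since Ccnd2 was chosen for its difference. On that scale 4 of 9 neighbouring pairs differed. Cdk4 at 442 TPM was above Cdkn1a at 198 TPM, and Cdkn1a above Ccnd2, each in 8 of 8 libraries (exact permutation adjusted p = 0.0234). Rb1 was above Cdkn2a by 0.68 on the log2 scale in 8 of 8 libraries (exact permutation adjusted p = 0.0234), and Ccnd3 above Ccnd1 by 1.47 in 7 of 8 (exact permutation adjusted p = 0.0352). Cdkn2a over Cdkn1b fell short of the threshold on that scale, at 0.80 in 6 of 8 libraries (exact permutation adjusted p = 0.0703). The log2 differences between treatments moved little with this choice, the largest shift among the members being that of Cdkn2a from -0.309 to -0.325.

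**Figure D4:**
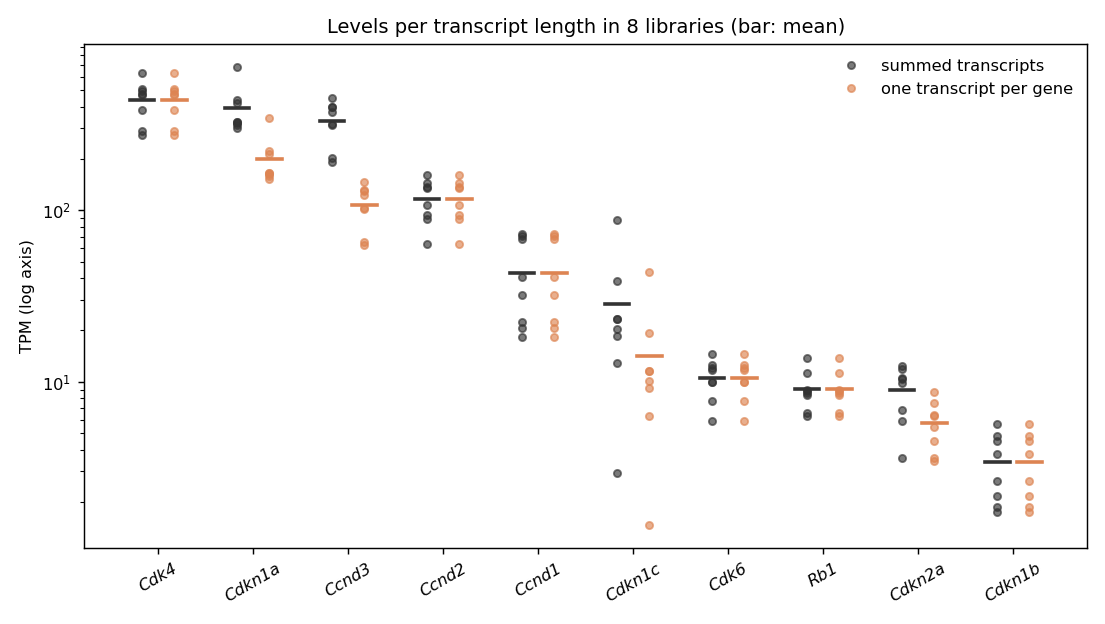
Level in TPM (log axis) of each gene in 8 libraries, with transcripts summed (dark points) and with 1 transcript per gene (orange points), ordered by the summed mean. Bars are means. Ccnd3 stands at a mean of 332 TPM summed and 108 TPM with 1 transcript, which brings its mean over 8 libraries near that of Ccnd2 at 116 TPM. With 1 transcript Ccnd3 is above Ccnd2 in the DMSO means (101 and 88.3 TPM) and below it in the DOX means (114 and 144 TPM).

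The wider G1 pathway was read from 48 other genes in 6 lists. By DESeq2, 0 of the 48 were called in either direction, against 0.147% of all genes. edgeR and limma-voom made 0 calls over all genes and so none here. At an unadjusted p under 0.05 the counts were 3 by DESeq2 (Ccne2, Fbxo31 and Fos), 3 by edgeR and 2 by limma-voom, where the share over all genes was 4.67% by DESeq2, 3.06% by edgeR and 3.07% by limma-voom. Over the 48 genes 22 were fitted higher in DOX and 26 lower, with a median log2 difference of -0.061. The values below are therefore those of genes that did not pass the test, named as the 2 of each list with the smallest unadjusted p.

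Among the INK4 inhibitors and the relatives of Rb1, 0 of 5 were called and 2 were fitted higher. Cdkn2b, which encodes p15-INK4b, had 10359 ± 2956 normalised counts in DMSO and 14074 ± 3004 in DOX (SD, n = 4), and Cdkn2c, which encodes p18-INK4c, had 1237 ± 473 and 708 ± 281. Among the E2F and DP factors 0 of 10 were called and 6 were fitted higher. E2f5, a repressor E2F, had 4040 ± 647 and 3076 ± 656, and E2f7, an atypical repressor, 497 ± 134 and 261 ± 171.

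Among genes of cyclin E-CDK2 and S phase entry 0 of 7 were called and 3 were fitted higher. Cyclin E2 (Ccne2), which acts with CDK2 downstream of the D cyclins, gave 7403, 11523, 12852 and 16652 normalised counts in DMSO 3, 5, 15 and 20, and 1650, 6674, 4850 and 7443 in DOX 9, 12, 19 and 21. The groups overlapped only between DMSO 3 and DOX 21, and the log2 difference was -1.23 (SE 0.49, DESeq2 adjusted p = 0.673). Cdt1, a replication licensing factor, had 689 ± 88.5 in DMSO and 949 ± 326 in DOX (SD, n = 4).

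Among genes for the turnover of D cyclins and p27 0 of 9 were called and 4 were fitted higher. Fbxo31, an F-box protein reported to target cyclin D1, gave 1614, 1431, 1197 and 933 normalised counts in DMSO 3, 5, 15 and 20, and 1906, 1923, 2773 and 2034 in DOX 9, 12, 19 and 21. It was the 1 gene of the 48 whose groups did not overlap, beside 2.71% of all genes, with a log2 difference of 0.74 (SE 0.26, DESeq2 adjusted p = 0.438). The lowest DMSO value and the highest DOX value were those of the low-detection libraries, and without those libraries the log2 difference was 0.49. Ambra1, the substrate receptor for degradation of D cyclins, had 3411 ± 370 in DMSO and 3871 ± 229 in DOX (SD, n = 4).

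Among mitogen and p53 inputs 0 of 11 were called and 7 were fitted higher. Fos, an immediate early gene, had 1391 ± 761 normalised counts in DMSO and 694 ± 165 in DOX (SD, n = 4), a fitted fold of 0.499 (DESeq2 adjusted p = 0.83). Its highest DMSO value, 2358, was that of DMSO 15, the library with the highest stromal sum. DMSO 20, 3 and 5 had 1621, 923 and 661, at stromal sums of 739, 895 and 239 TPM. The part of cell content in Fos was not tested. Etv5, a transcription factor induced by receptor tyrosine kinase signals, had 4823 ± 989 and 6836 ± 1458.

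Among markers of cycling cells 0 of 6 were called, and 0 had an unadjusted p under 0.05 by DESeq2, edgeR or limma-voom. All 6 were fitted lower in DOX, with a median log2 difference of -0.703 beside -0.076 over all genes. They were measured in the same libraries and were not tested as a set. The study reported no significant change in its own proliferation markers. Ccnb1, the mitotic cyclin, had 3508 ± 1612 in DMSO and 2079 ± 981 in DOX, and Pcna, the replication clamp, 4700 ± 708 and 3415 ± 1068 (SD, n = 4). Their log2 differences were -0.755 (SE 0.48) and -0.461 (SE 0.29). Of the cell type markers, 0 of 6 for tubule epithelium, 1 of 6 for stroma, 0 of 4 for macrophages, 2 of 4 for endothelium and 4 of 5 for urothelium were fitted higher in DOX, and 0 were called.

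**Figure D5:**
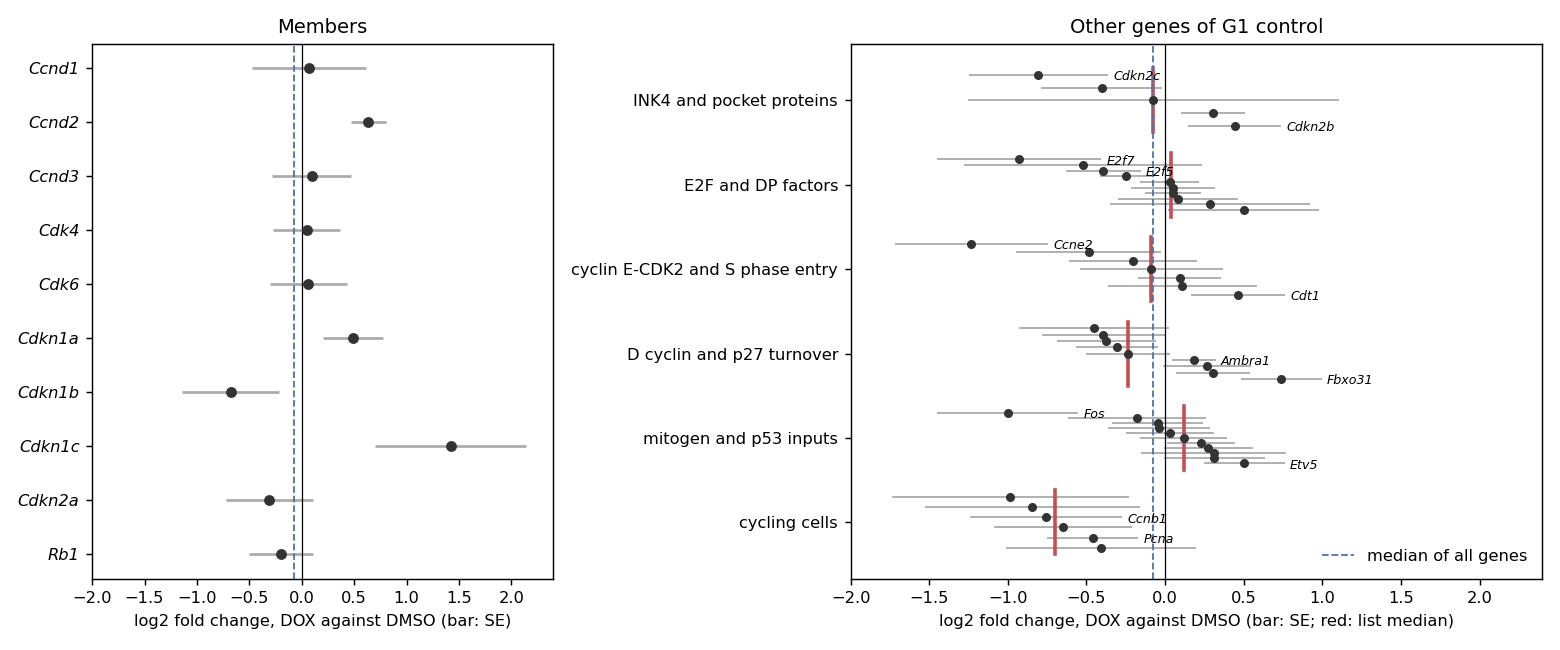
Fitted log2 fold change, DOX against DMSO, with its SE, for the 10 genes (left) and for 48 other genes in 6 lists (right), where red bars are list medians and the dashed blue line is the median of all genes (-0.076). The difference of Ccnd2 prompted the choice of the group, so its point and SE are a description and no test. The list of cycling cells has the lowest median (-0.703), and 0 of its genes were called.

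The genes most like Ccnd2 across the 8 libraries were found by the mean absolute difference of standardised log2(normalised count + 1) values among 13247 genes with a mean of at least 100 normalised counts. They were Gna11 and Map3k3 (0.236 SD units each), Afg3l2 (0.264), Pknox1 (0.266) and Zhx2 (0.268), beside a median of 1.11 over all genes. Since Ccnd2 was chosen for its pattern, this likeness is a description over 8 libraries. Gna11 had 4881 ± 541 normalised counts in DMSO and 6637 ± 304 in DOX, and Zhx2 368 ± 16.4 and 601 ± 68.4 (SD, n = 4). Of the members, Cdkn1a was the nearest to Ccnd2 at 0.747 SD units and Cdkn1b the farthest at 1.44.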

How the data were processed

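RNA was sequenced from 8 tubuloid cultures, 4 treated with DOX and 4 with DMSO, in polyadenylated libraries made with a kit that does not mark strand. The submitters' processing notes name STAR, featureCounts and DESeq2 and the mouse build mm10 (GRCm38), with no versions. The deposited files hold, for each of 33068 RefSeq transcripts, the authors' raw read count, TPM and FPKM. The deposited FPKM values were not used here. The libraries were run on more than 1 flow cell lane, and the lane of each library is not given in the sources used here.

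Counts and TPM were summed by symbol. The main test was the Wald test of DESeq2 1.42.0 on summed counts with no covariate, fitted over all genes (adjusted p available for 17011). Calls needed 1.5-fold and an adjusted p no higher than 0.05. edgeR 4.0.16 quasi-likelihood and limma-voom (limma 3.58.1) were run beside it, in R 4.3.3, and the scripts were tested on simulated data. TPM levels used log2(TPM + 0.1) and an exact permutation test. Low-detection libraries are the 2 with the fewest detected genes. Sex was taken from Xist and Y-linked counts. Sequences came from GENCODE vM21 and RefSeq tables.

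The members, the pathway and marker lists and the tests were chosen with earlier results of these data known. Named genes were all 10 members, Pkd2, the 2 genes of each pathway list with the smallest unadjusted p where none was called, marker lists by summed level, and the 5 genes most like Ccnd2. The tubule epithelium list was used without 1 gene that is not reported here. The alternatives were other tests, scalings, count filters, transcripts and pseudocounts, sex as a covariate, and left-out libraries. Cdkn1b and Cdkn2a had the fewest reads, while the fitted SE was largest for Cdkn1c and Ccnd1. Intervals are from the fit.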

Additional observations from a re-analysis of the deposited data

Results flagged for a closer look

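In 44 groups of 4 libraries tested for a value far from the others, 2 stood out, where chance would give about 1 in 20, or 2.2. Cdkn1b in DOX 19 had 499 normalised counts against 173 to 188 in the other DOX libraries, a gap of 0.925 of the whole range of the group. Cdkn2b in DOX 12 had 9615 normalised counts against 14997 to 16049 in the other DOX libraries, a gap of 0.868 of the range. Macrophage markers summed to 0.0068 TPM in DOX 19 and to between 3.84 and 28.7 TPM in the other 7 libraries. Urothelial markers summed to 16.9 TPM in DOX 19 and to between 0.725 and 7.42 TPM in the others.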

How the results depend on the processing

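The library numbers of the DOX and DMSO groups are not shared, and the labels name no animal or preparation. Whether cultures were paired is therefore unknown, and no paired analysis was made. Of the 9 members other than Ccnd2, 0 were called under 16 of 17 alternatives. The exception was the omission of DOX 19, with 1 call (Cdkn1b) beside 17 calls over all genes, so that leaving out 1 library gave 0 to 1. DOX 19 held the Cdkn1b value flagged as far from its group. The pathway lists held 0 calls under all 17. Over all genes, 25 calls became 0 by edgeR and 0 by limma-voom, 16 with at least 10 counts in every library, 48 without the Cook distance filter, 51 without both low-detection libraries and 43 with sex as a covariate. Leaving out 1 library gave 14 (without DMSO 3) to 75 calls (without DMSO 15).

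The log2 difference of Ccnd2 stayed between 0.54 and 0.71 and that of Cdkn1c between 0.73 and 1.82. Ccnd1 turned to -0.081 by limma-voom and -0.006 with sex as a covariate, to -0.09, -0.05, -0.32 and -0.12 without DMSO 15, DMSO 20, DOX 9 or DOX 12, and ranged from -0.32 to 0.33 when 1 library was left out. Ccnd3 turned to -0.04 and -0.11 without DMSO 3 or DMSO 5 (range -0.11 to 0.32), and Cdk4 to -0.13 and -0.04 without DMSO 20 or DOX 12 (range -0.13 to 0.22). Cdk6 turned to -0.045 without both low-detection libraries and to -0.09 and -0.12 without DMSO 3 or DOX 19 (range -0.12 to 0.25). The cause was not tested.

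The count of neighbouring levels that differed, 3, was 4 with 1 transcript per gene and 0 without both low-detection libraries, where the smallest p is 0.0312, and 0 to 3 when 1 library was left out, where the smallest p is 0.0156. With 1 library left out, the differences stayed at 1.42 to 1.58 for Ccnd3 over Ccnd2 and 1.39 to 1.74 for Ccnd2 over Ccnd1. Without both low-detection libraries they were 1.435 and 1.346. The counts of pairs that differed therefore say little of stability. Cdkn2a over Cdkn1b lost its call under 9 of 11 alternatives, at 0.80 to 1.78 over all of them. With 1 transcript per gene the difference of Ccnd3 over Ccnd2 turned to -0.11 and that of Cdkn1c over Cdk6 to -0.03, as fewer transcripts were summed. Rb1 over Cdkn2a turned to -0.22 without both low-detection libraries and to -0.13 without DOX 19, ranged from -0.13 to 0.18 when 1 library was left out, and passed the threshold at 0.68 with 1 transcript per gene. Cdkn2a ranged from -0.58 to -0.05 and Rb1 from -0.38 to -0.02 over the alternatives. Cdkn1b and Cdkn2a had the fewest reads.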
